A study of Mus musculus with 12 samples.

Results

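The genes described here remodel and crosslink the extracellular matrix. They are the matrix metalloproteinases Mmp2, Mmp13 and Mmp14, the tissue inhibitors of metalloproteinases Timp1, Timp2 and Timp3, the lysyl oxidases Lox, Loxl1 and Loxl2, and the matricellular gene Sparc. They were chosen by symbol, with earlier results of these data known, so their shares are not those of an independently chosen set. All 10 were found among the 55359 genes of the count table. Of these genes 29250 had a count in some library, and 15274 passed the filter on low counts and were tested. All 10 members passed that filter. Mmp13 passed it through the high-fat diet groups, since 4 of 4 NM-FGF19 libraries, 4 of 4 HFD control libraries and 0 of 4 lean libraries reached 0.339 CPM, the filter's threshold (CPM are counts scaled to the size of the library). Timp1 reached it in 1 of 4 lean libraries, and Lox in 3, 4 and 3 libraries of the NM-FGF19, HFD control and lean groups.

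Poly(A) RNA-seq was done on livers of 12 male C57BL/6NTac mice, 4 in each of 3 groups. NM-FGF19 mice were kept on a high-fat diet and were given lipid nanoparticles with mRNA for non-mitogenic FGF19, a variant of the gut hormone that represses bile acid synthesis. HFD control mice ate the same diet and received a Control-mRNA, and lean mice ate normal chow and received the Control-mRNA too, so every mouse was given mRNA in lipid nanoparticles. The HFD control libraries are named mOX40L in the count table, and what the Control-mRNA encodes is not stated otherwise. The particles were given weekly for 6 weeks and the liver was sampled 24 hours past the final injection. The labels state an age of 24 weeks, and diet periods of 21 weeks before treatment and of 28 weeks in all. Mice killed before treatment as a baseline are not analysed here, so change over time in the same animals was not measured. Each library is 1 liver piece of 1 mouse, and a whole-liver library mixes hepatocytes with the minority cell types that make most matrix. Assigned counts ran between 26809039 and 30014092 in NM-FGF19 libraries, 32284438 and 33257260 in HFD controls, and 23743415 and 30349156 in lean libraries. The tissue label was checked by 8 hepatocyte markers, whose summed level was 85056 to 128789 CPM in NM-FGF19, 50361 to 74651 CPM in HFD control and 78197 to 94820 CPM in lean libraries.

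Metalloproteinases cleave collagens and other matrix proteins, and most are secreted as inactive precursors. MMP14 sits in the cell membrane and, with TIMP2 as a bridge, activates MMP2, a gelatinase, whereas MMP13 is a collagenase that cuts fibrillar collagen and does much of that work in rodents. TIMPs bind the active site of these enzymes. TIMP1 is a secreted inhibitor induced in injured liver, and TIMP3 is held in the matrix and also inhibits ADAM proteases. Lysyl oxidases oxidise lysine side chains of collagen and elastin, which then form the covalent crosslinks that stiffen scar tissue. SPARC binds collagen and takes part in its assembly. In liver, hepatic stellate cells and fibroblasts make most of these proteins, and macrophages are a source of MMP13 in rodents.

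The promoter table from RefSeq (build GRCm38.p6) held 6 of the 10 members, and 3 of these had a window of 180 bases before the gene start with no annotated exon in it. These 3 are shown because they were the members with such a window, and they include Mmp13 and Timp1, whose fold differences between diets were the largest of the 10. The windows lie at chr9:7272334-7272513 for Mmp13, chrX:20869986-20870165 for Timp1 and chr14:54431418-54431597 for Mmp14, all on the plus strand. Capitals mark matches on either strand to the letters searched. These were TGANTCA for the AP-1 family of factors that respond to growth signals, TATAAA for the box bound by the general transcription machinery, GGGCGG for the GC box of Sp factors, and GGAAGT for the ETS family.
Mmp13: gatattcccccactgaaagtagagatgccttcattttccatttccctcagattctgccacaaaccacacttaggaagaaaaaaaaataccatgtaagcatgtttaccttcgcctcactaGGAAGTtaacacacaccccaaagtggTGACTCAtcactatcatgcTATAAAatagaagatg
Timp1: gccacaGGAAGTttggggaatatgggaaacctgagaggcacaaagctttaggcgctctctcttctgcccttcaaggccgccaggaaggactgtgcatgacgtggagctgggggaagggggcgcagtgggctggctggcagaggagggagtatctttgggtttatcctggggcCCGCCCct
Mmp14: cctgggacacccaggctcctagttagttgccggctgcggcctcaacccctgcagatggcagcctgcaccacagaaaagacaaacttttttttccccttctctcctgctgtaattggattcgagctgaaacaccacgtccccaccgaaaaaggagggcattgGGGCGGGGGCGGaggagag
The Mmp13 window held an AP-1 match beginning 35 bases before the start, a TATA match beginning 16 bases before it and an ETS match beginning 61 bases before it. An AP-1 match was present in 4.97% of the 32851 windows of the same length in the table, a TATA match in 8.94% and an ETS match in 15.4%. The Timp1 window held a GC box 8 bases and an ETS match 174 bases before the start. The Mmp14 window held adjacent GC boxes 19 and 13 bases before the start, and 30.2% of all windows held at least 1. The windows were 40.0% G or C in Mmp13, 60.6% in Timp1 and 57.8% in Mmp14, against a median of 53.3% over all windows. A match is a run of letters and was not tested as a binding site.

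Levels were compared between genes as CPM per kilobase of annotated exon. Sparc was the highest of the 10 in every group, at 35.2 ± 18.2 CPM per kb in NM-FGF19 livers, 50.5 ± 13.7 in HFD control livers and 15.4 ± 3.15 in lean livers (SD, n = 4 each). Mmp14 came next in every group, with means of 10.03, 7.64 and 9.07 CPM per kb in the NM-FGF19, HFD control and lean groups. Sparc lay above Mmp14 with no overlap of libraries in the NM-FGF19 and HFD control groups, whereas the ranges overlapped in the lean group. Timp2 was the third in every group, at 6.23 CPM per kb in NM-FGF19, 5.59 in HFD control and 4.40 in lean livers. Mmp13 and Lox held the lowest places in all groups, and both were under 0.2 CPM per kb in the lean livers on average. Most neighbours in the order overlapped. The exceptions besides Sparc and Mmp14 were Mmp13 above Lox in NM-FGF19 livers, and Mmp14 above Timp2, Timp2 above Timp3 and Timp3 above Loxl2 in lean livers. Exon lengths came from an older build than the one the reads were aligned to, so these levels are approximate.

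**Figure D1:**
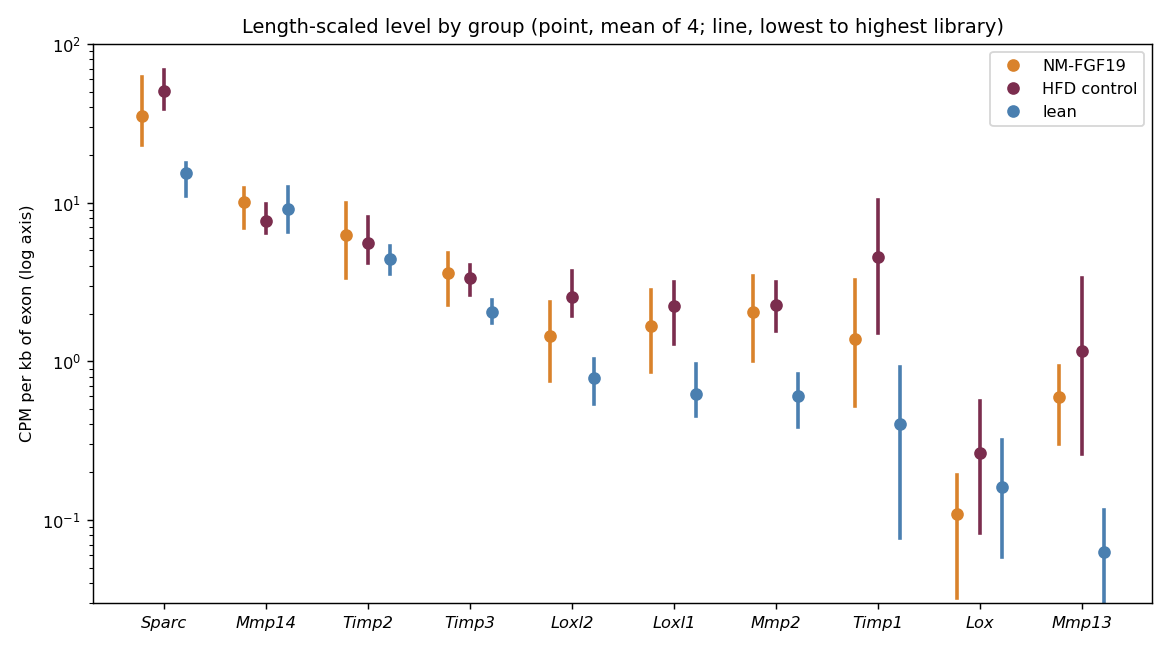
CPM per kb of exon (log axis) of the 10 genes in NM-FGF19, HFD control and lean livers, ordered by the lean mean; points are means of 4 libraries and lines run between the lowest and highest library, cut at the bottom of the axis. Sparc is the highest in each group, at 35.2, 50.5 and 15.4 CPM per kb, and Mmp13 and Lox are the lowest.

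The diet comparison asked how the livers of HFD control mice differed from those of lean mice. Mmp2, Mmp13, Timp1, Loxl1, Loxl2 and Sparc rose in HFD control livers, 6 of 10 members, and no member fell (edgeR quasi-likelihood test, Benjamini-Hochberg adjusted p under 0.05 over all genes tested). Among all 15274 genes 5.04% rose and 3.29% fell. Mmp14, Timp2, Timp3 and Lox did not pass the test. In 7 of 10 members every HFD control library lay above every lean library, against 8.4% of all genes. The 6 and the 7 both include Mmp13 and Timp1, for which 0 of 4 and 1 of 4 lean libraries reached the low-count filter's threshold. These 2 passed the filter through the high-fat groups, so their part in the counts is not independent of it. The median log2 change was 1.71 over the members and -0.02 over all genes. Each role was represented among the 6: 2 of 3 proteases, 1 of 3 inhibitors, 2 of 3 lysyl oxidases and Sparc.

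Among the proteases, Mmp2 measured 8.22, 3.39, 4.35 and 11.7 CPM in the NM-FGF19 libraries 1 to 4, 7.34, 7.16, 10.7 and 5.23 CPM in HFD controls, and 1.30, 1.95, 2.14 and 2.80 CPM in lean livers. All libraries of both high-fat groups lay above all lean libraries, while the high-fat groups overlapped with each other. Mmp2 was 3.72-fold higher in HFD control than in lean livers (log2 change 1.90 ± 0.39 SE, adjusted p = 0.0132).

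Mmp13 measured 1.43, 1.62, 0.803 and 2.51 CPM in NM-FGF19 livers, 1.16, 0.696, 8.92 and 1.65 CPM in HFD controls, and 0.308, 0.186, 0 and 0.175 CPM in lean livers. These are small numbers of reads, with 184 counts summed over NM-FGF19 libraries, 460 over HFD controls and 17 over lean libraries. In lean library 3 no read was assigned, which allows up to 0.153 CPM (3 counts, counting error only). The high-fat groups did not overlap with the lean group, and HFD control 3 alone held 334 of the 460 HFD control counts. Mmp13 rose by 4.11 ± 0.91 on the log2 scale in HFD control livers, a fold of 17.3 (adjusted p = 0.0196). Without HFD control 3 the log2 change was 2.71 (adjusted p = 0.0391), and the call was lost without lean 2 (adjusted p = 0.0534) or lean 4 (adjusted p = 0.0537).

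Mmp14 was abundant and differed little between diets. It averaged 59.8 ± 14.2 CPM in NM-FGF19, 45.6 ± 8.93 CPM in HFD control and 54.1 ± 15.03 CPM in lean livers (SD, n = 4 each), and all groups overlapped. The log2 change in HFD control against lean livers was -0.25 ± 0.22 (adjusted p = 0.53), with an interval of 2 SE on each side between -0.68 and 0.19. The ratio of Mmp2 counts to those of its membrane-bound activator Mmp14 was 0.137 to 0.182 in HFD control and 0.0257 to 0.0718 in lean libraries. These ranges did not overlap, and their difference was not tested.

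**Figure D2:**
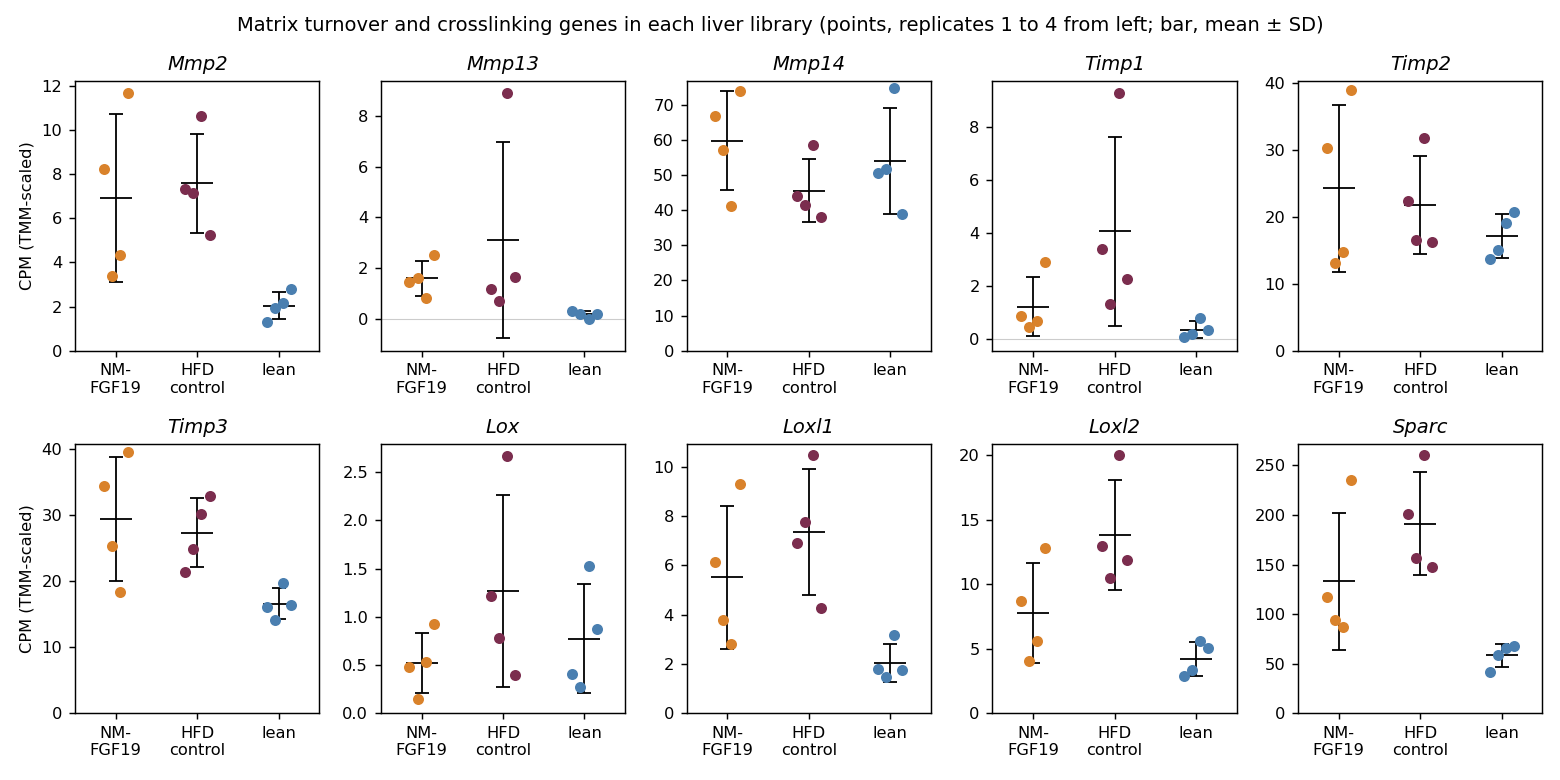
CPM, scaled with TMM factors, of each gene in each liver library, 1 panel a gene with its own axis; points are replicates 1 to 4 from left to right in NM-FGF19, HFD control and lean groups, and bars show the mean ± SD. Sparc and Mmp2 lie above all lean libraries in both high-fat groups, Mmp14 and Timp2 overlap in all 3 groups, and the HFD control mean of Mmp13 rests on the library at 8.92 CPM.

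Of the inhibitors, Timp1 measured 0.887, 0.462, 0.669 and 2.90 CPM in NM-FGF19 livers, 3.38, 1.33, 9.26 and 2.27 CPM in HFD controls, and 0.0685, 0.186, 0.816 and 0.350 CPM in lean livers. Every HFD control library was above every lean library, and the NM-FGF19 libraries overlapped with both other groups. Timp1 rose by 3.56 ± 0.84 on the log2 scale in HFD control against lean livers, 11.8-fold (adjusted p = 0.0244), on 601 and 30 summed counts. The call was lost without HFD control 3 (log2 change 2.76, adjusted p = 0.0636), lean 2 (adjusted p = 0.0703) or lean 4 (adjusted p = 0.0653), and without lean 3 the log2 change was 4.38.

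Timp2 averaged 24.3 ± 12.4 CPM in NM-FGF19, 21.8 ± 7.27 CPM in HFD control and 17.1 ± 3.27 CPM in lean livers, and all 3 groups overlapped. Its log2 change with diet was 0.35 ± 0.34 (adjusted p = 0.581), with an interval between -0.33 and 1.02 that holds both no change and a doubling. Timp3 measured 34.3, 25.2, 18.3 and 39.5 CPM in NM-FGF19 livers, 21.3, 24.8, 30.2 and 32.9 CPM in HFD controls, and 16.1, 14.2, 19.7 and 16.3 CPM in lean livers. Every HFD control library lay above every lean library, but the log2 change of 0.72 ± 0.22 missed the threshold (adjusted p = 0.0576). Timp3 passed it in 4 of 19 alternatives, which were DESeq2 (adjusted p = 0.0234), library totals alone (0.00801), no low-count filter (0.0377) and a fit of only the 2 groups (0.0306). An exon stretch of Timp3 overlaps exons of Syn3 on the opposite strand, and the strand setting of the counting is not stated. Syn3 itself had 345 counts over the 12 libraries, against 8893 for Timp3.

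Among the lysyl oxidases, Loxl1 measured 6.14, 3.77, 2.81 and 9.30 CPM in NM-FGF19 livers, 6.92, 7.77, 10.5 and 4.26 CPM in HFD controls, and 1.78, 1.49, 3.16 and 1.75 CPM in lean livers. Loxl1, which acts on elastic fibres, was 3.61-fold higher in HFD control than in lean livers (log2 change 1.85 ± 0.39, adjusted p = 0.0155), and these groups did not overlap. Loxl2, which crosslinks collagen, measured 8.66, 4.04, 5.62 and 12.8 CPM in NM-FGF19 livers, 13.0, 10.5, 20.02 and 11.9 CPM in HFD controls, and 2.91, 3.34, 5.61 and 5.03 CPM in lean livers. The HFD control libraries were all above the lean ones, and the NM-FGF19 libraries overlapped with both groups. Loxl2 was 3.29-fold higher in HFD control than in lean livers (log2 change 1.72 ± 0.35, adjusted p = 0.0134). Lox, the founding enzyme of the family, was scarce, with 0.523 ± 0.316 CPM in NM-FGF19, 1.27 ± 0.993 CPM in HFD control and 0.773 ± 0.565 CPM in lean livers. All 3 groups overlapped, and its diet change of 0.73 ± 0.66 on the log2 scale (adjusted p = 0.542) had an interval between -0.58 and 2.04, too wide to show a change of the size seen for Loxl1 or to exclude it.

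Sparc, the most abundant member, measured 117, 93.8, 87.0 and 235 CPM in NM-FGF19 livers, 201, 156, 261 and 147 CPM in HFD controls, and 41.5, 59.0, 65.6 and 67.7 CPM in lean livers. Every library of both high-fat groups lay above every lean library. Sparc was 3.27-fold higher in HFD control than in lean livers (log2 change 1.71 ± 0.31, adjusted p = 0.0101), the smallest adjusted p among the members. The calls of Sparc, Loxl1 and Loxl2 held under all 19 alternatives, and that of Mmp2 was lost in 1 of them, with lean 3 and HFD control 3 both left out (adjusted p = 0.065). Scaling by library totals alone gave a median over all genes of 0.29 on the log2 scale and called 2383 genes higher and 228 lower, where the TMM scaling gave -0.02, 770 and 502. It called 7 members higher, the 6 above and Timp3.

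The treatment comparison asked how NM-FGF19 mRNA changed the livers of mice on the high-fat diet. No member passed the test in NM-FGF19 against HFD control livers (0 of 10, edgeR quasi-likelihood test; 0 also with DESeq2 and with limma voom), where 0.432% of all genes did. At an unadjusted p under 0.05 there were 2 members, Timp1 and Loxl2, against 8.95% of all genes. The groups overlapped in all 10 members, whereas they were separate for 5.62% of all genes. The log2 change was below 0 in 7 of 10 members, with a median of -0.47, and in 50.05% of all genes.

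Timp1 averaged 1.23 ± 1.13 CPM in NM-FGF19 livers and 4.06 ± 3.57 CPM in HFD control livers, on 146 and 601 summed counts. The log2 change was -1.72 ± 0.73 (unadjusted p = 0.0372, adjusted p = 0.514), with an interval between -3.18 and -0.25. NM-FGF19 libraries 1 to 3 were below all HFD controls, and NM-FGF19 4 was above HFD controls 2 and 4. Loxl2 averaged 7.79 ± 3.87 CPM in NM-FGF19 livers and 13.8 ± 4.25 CPM in HFD control livers, a log2 change of -0.83 ± 0.34 (unadjusted p = 0.0289, adjusted p = 0.476). Again libraries 1 to 3 were below all HFD controls and NM-FGF19 4 was not. Sparc averaged 133 ± 69.1 CPM in NM-FGF19 and 191 ± 52.0 CPM in HFD control livers, a log2 change of -0.52 ± 0.30 (adjusted p = 0.688).

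The other members differed in precision, with an SE between 0.21 for Timp3 and 0.74 for Mmp13. Lox changed by -1.26 ± 0.66, Mmp13 by -0.97 ± 0.74 and Loxl1 by -0.42 ± 0.37 on the log2 scale, with adjusted p of 0.626, 0.781 and 0.826. Mmp2 was at -0.13 ± 0.36, Timp3 at 0.11 ± 0.21, Timp2 at 0.16 ± 0.34 and Mmp14 at 0.39 ± 0.22, with adjusted p between 0.654 and 0.964. For Mmp2 the interval was between -0.86 and 0.59, and for Timp3 it was between -0.32 and 0.53. These intervals leave room for changes in either direction, so the misses do not show that the groups were alike. The value of Mmp13 turned positive, at 0.44, without HFD control 3. With library totals alone the median of all genes was -0.13, and 26 genes were called higher and 30 lower, where the TMM scaling called 43 and 23.

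**Figure D3:**
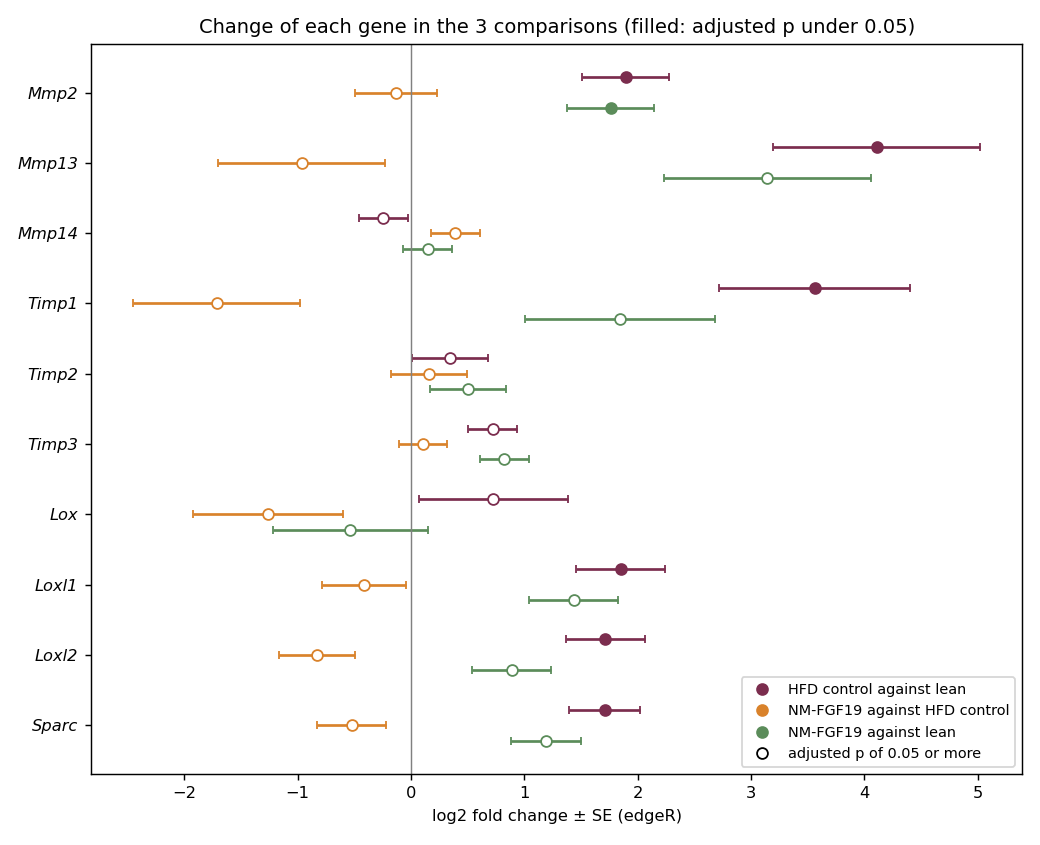
log2 fold change ± SE (edgeR) of each gene in NM-FGF19 against HFD control, HFD control against lean and NM-FGF19 against lean; filled points have an adjusted p under 0.05. The 6 filled points of the diet comparison lie between 1.71 and 4.11, the treatment comparison has no filled point, and Mmp2 is the filled point of NM-FGF19 against lean.

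NM-FGF19 livers were also set against lean livers, which differ from them in both diet and mRNA. Mmp2 was the only member that passed the test, 3.39-fold higher in NM-FGF19 than in lean livers (log2 change 1.76 ± 0.39, adjusted p = 0.0433), where 1.01% of all genes rose and 0.484% fell. This call was lost in 6 of 8 fits that left out 1 library, so it rests on most of them: without lean 1 to 4 in turn the adjusted p was 0.0893, 0.0966, 0.0819 and 0.0737, and without NM-FGF19 1 or 4 it was 0.104. In 3 of 10 members, Mmp2, Mmp13 and Sparc, every NM-FGF19 library lay above every lean library, against 5.46% of all genes. Of these, Mmp13 passed the low-count filter through the high-fat groups alone. Mmp13 had a log2 change of 3.14 ± 0.91 (adjusted p = 0.105), Loxl1 of 1.44 ± 0.39 (adjusted p = 0.0884) and Sparc of 1.19 ± 0.31 (adjusted p = 0.0762). Timp3 was at 0.82 ± 0.22 (adjusted p = 0.0781), Timp1 at 1.85 ± 0.84 (adjusted p = 0.292) and Loxl2 at 0.89 ± 0.35 (adjusted p = 0.213). Timp2, Mmp14 and Lox were at 0.50, 0.15 and -0.53 on the log2 scale, with adjusted p of 0.494 or more. With library totals alone the median of all genes was 0.17, and 346 genes were called higher and 52 lower, where the TMM scaling called 154 and 74. The comparisons share groups: HFD controls enter the diet and the treatment comparison, and lean livers enter both comparisons with chow.

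Within a group the members varied from liver to liver in the same libraries. NM-FGF19 4 was the highest of its group in 10 of 10 members, and HFD control 3 was the highest of its group in 9 of 10, all but Timp3. The lowest NM-FGF19 value belonged to library 2 in 5 members and to library 3 in the other 5. NM-FGF19 2 and NM-FGF19 3 were each below all 4 HFD controls in 7 members, NM-FGF19 1 in 3 members and NM-FGF19 4 in 0. NM-FGF19 4 was instead above all HFD controls in 4 members, Mmp2, Mmp14, Timp2 and Timp3. Such counts per library were not computed over all genes, so they cannot be called particular to these members. Lean 3 was the highest lean library in 6 members, and it had the lowest TMM factor of all 12 libraries, 0.779.

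**Figure D4:**
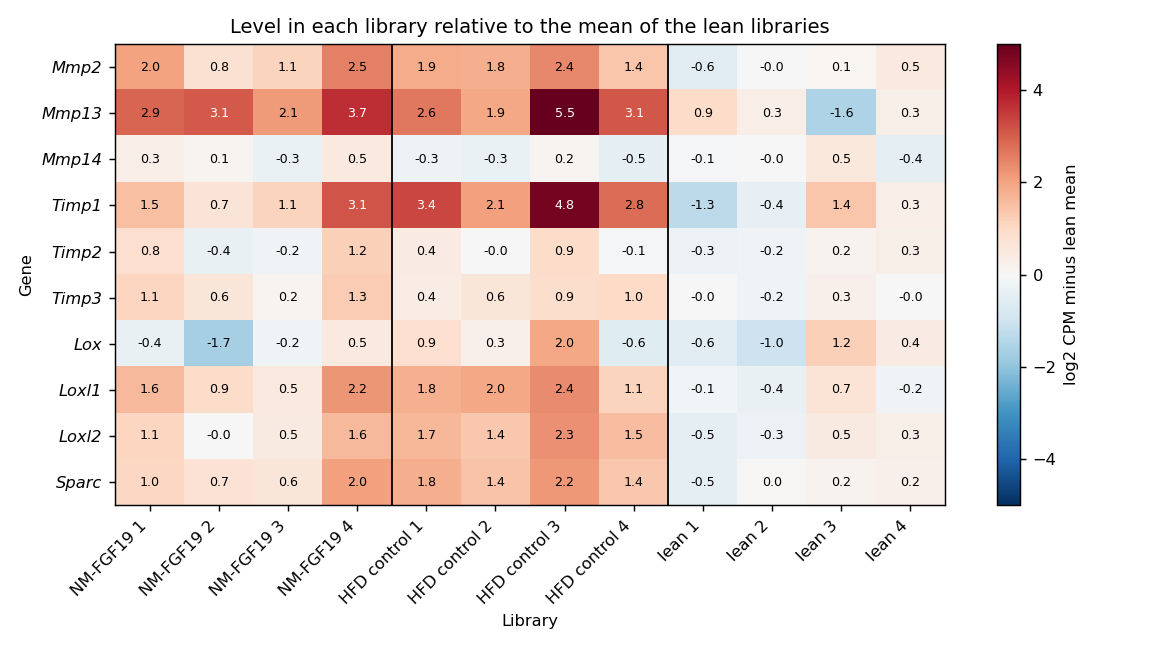
log2 CPM of each gene (rows) in each library (columns) minus the mean log2 CPM of the 4 lean libraries, in colour and printed in each cell. HFD control 3 and NM-FGF19 4 are the darkest columns of their groups, and the Mmp13 and Timp1 rows reach the largest differences.

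The deviations of the members from their group means moved together across the 12 libraries. All 45 pairs of members had a correlation above 0, and 34 were above 0.5, with a median of 0.66. The highest was that of Mmp2 with Timp2, at 0.95, and the lowest that of Mmp13 with Lox, at 0.12. Mmp13 stood lowest by its median correlation with the other members, 0.26. The points of each pair share library, depth and scaling factor, so the correlations describe these libraries only. Pairs of other genes were not computed, so the correlations cannot be called particular to the members.

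Ratios of counts within a library do not depend on the scaling, and 6 were computed, of which the following were chosen after their values were seen. Timp1 over Timp2 counts were 0.0293, 0.0352, 0.0452 and 0.0745 in NM-FGF19 libraries, against 0.151, 0.0804, 0.291 and 0.140 in HFD control libraries. These groups did not overlap, and the lean ratios were 0.00498 to 0.0429. The same groups overlapped in the other Timp1 ratios. Timp1 over Mmp2 was 0.108 to 0.248 in NM-FGF19 and 0.186 to 0.870 in HFD control libraries. Timp1 over Mmp13 was 0.286 to 1.16 in NM-FGF19 and 1.04 to 2.91 in HFD control libraries. Timp1 over Mmp14 was 0.00808 to 0.0392 in NM-FGF19 and 0.0321 to 0.158 in HFD control libraries. No difference in a ratio was tested. Loxl2 over Sparc counts stayed between 0.0431 and 0.0855 in all 12 libraries, with overlap between all 3 groups.

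The genes outside the list whose log2 CPM followed each member most closely over the 12 libraries were named by Pearson's r. Sparc was followed by the fibrillar collagen genes Col1a1 (r = 0.995) and Col3a1 (r = 0.991), and Loxl2 by the fibrillar collagen gene Col5a1 (r = 0.956) and Cmtm3 (r = 0.956). Mmp13 was followed by Mbp (r = 0.973) and by Mmp12, the macrophage elastase (r = 0.970). Timp1 was followed by C1qtnf12 (r = 0.974) and Il3ra (r = 0.964), Mmp2 by Emilin1 and Gdf10 (r = 0.975 each), and Loxl1 by Gpx8 (r = 0.975) and Olfml3 (r = 0.972). The likest genes of the members that did not pass the diet test were less close, with Frem1 (r = 0.933) and Pear1 (r = 0.930) for Timp3, Kctd17 (r = 0.926) and Fhl1 (r = 0.922) for Timp2, Rassf2 (r = 0.912) and Mcrs1 (r = 0.907) for Lox, and Gramd1a (r = 0.882) and Gpx3 (r = 0.878) for Mmp14. These values include the differences between groups, and nothing about shared control follows from them.

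Wider lists of matrix remodelling genes were read beside the members, 91 genes in 6 lists, of which 82 were tested. The lists too were chosen with earlier results of these data known. In HFD control against lean livers 17 of 82 rose and 1 fell (edgeR), with a median log2 change of 0.49, where 5.04% of all genes rose and 3.29% fell. With lean 3 and HFD control 3 both left out 8 rose and 0 fell, against 2.1% and 1.02% of all genes. DESeq2 called 31 higher and 5 lower, against 8.5% and 6.03% of all genes, and library totals alone gave 33 and 0, against 15.6% and 1.49%. Of the other metalloproteinases 2 of 10 rose. Mmp12 averaged 17.1 ± 22.4 CPM in HFD control and 0.539 ± 0.262 CPM in lean livers (log2 change 4.94 ± 0.94, adjusted p = 0.0127), and Mmp23 changed by 1.82 ± 0.52 (adjusted p = 0.0466). The Mmp12 mean rests on HFD control 3, at 50.1 CPM, the other HFD controls being at 2.84 to 11.6 CPM, and without it the log2 change was 3.45 (adjusted p = 0.0102). Both calls were lost with limma voom (adjusted p = 0.135 for Mmp12 and 0.0735 for Mmp23) and with a replicate block (0.0577 and 0.0668). That of Mmp12 was also lost with limma voom and sample quality weights (0.0644). That of Mmp23 was lost in every fit that left out 1 library (adjusted p of 0.0542 to 0.130). It was also lost with lean 3 and HFD control 3 both left out (0.133). Of the ADAM and ADAMTS proteases 4 of 16 rose, led by Adam15, at 1.40 ± 0.30 on the log2 scale (adjusted p = 0.0162), and the leukocyte gene Adam8, at 2.73 ± 0.67 (adjusted p = 0.0276). Of the 8 other protease inhibitors tested 0 passed, with 2 at an unadjusted p under 0.05, 1 called lower by DESeq2 and 0 by limma voom, and their median was -0.48.

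Of 18 genes of collagen processing and crosslinking 4 rose and 1 fell. Serpinh1, the collagen chaperone HSP47, averaged 57.0 ± 17.0 CPM in HFD control and 14.9 ± 7.96 CPM in lean livers (log2 change 1.94 ± 0.41, adjusted p = 0.0184). Fkbp10, a prolyl isomerase for procollagen, rose by 2.45 ± 0.48 (adjusted p = 0.0119). Bmp1, the procollagen C-proteinase that also activates lysyl oxidase precursors, fell to 106.7 ± 31.9 CPM in HFD control livers, against 176.5 ± 20.7 CPM in lean livers (log2 change -0.73 ± 0.18, adjusted p = 0.0281). It was not called with library totals alone, nor with lean 3 and HFD control 3 both left out. Of 18 matricellular and elastic fibre genes 5 rose, with Efemp2 (fibulin-4) at 1.54 ± 0.30 (adjusted p = 0.0114) and the fibrillin gene Fbn1 at 1.40 ± 0.28 (adjusted p = 0.0123). Of 12 genes of collagen uptake and the plasmin system 2 rose: Mrc2, a receptor that takes up cleaved collagen, by 2.01 ± 0.38 (adjusted p = 0.0103), and Plau, the plasminogen activator urokinase, by 1.90 ± 0.38 (adjusted p = 0.0123).

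In NM-FGF19 against HFD control livers 0 of these 82 genes passed the test (edgeR), with a median log2 change of -0.21 and a lowest adjusted p of 0.22. At an unadjusted p under 0.05 there were 9 of 82, near the 8.95% of all genes. DESeq2 called 1 and limma voom 0, against 1.89% and 0.334% of all genes. In NM-FGF19 against lean livers 1 of 82 rose (14 with DESeq2, 0 with limma voom), the matricellular gene Thbs2, which averaged 7.43 ± 3.35 CPM in NM-FGF19 and 2.12 ± 0.756 CPM in lean livers (log2 change 1.81 ± 0.37, adjusted p = 0.0325). Of all genes 1.01% rose in that comparison with edgeR, 3.93% with DESeq2 and 0.426% with limma voom. Mmp12 averaged 5.19 ± 1.77 CPM in NM-FGF19 and 17.1 ± 22.4 CPM in HFD control livers (log2 change -1.72 ± 0.77, adjusted p = 0.551).

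**Figure D5:**
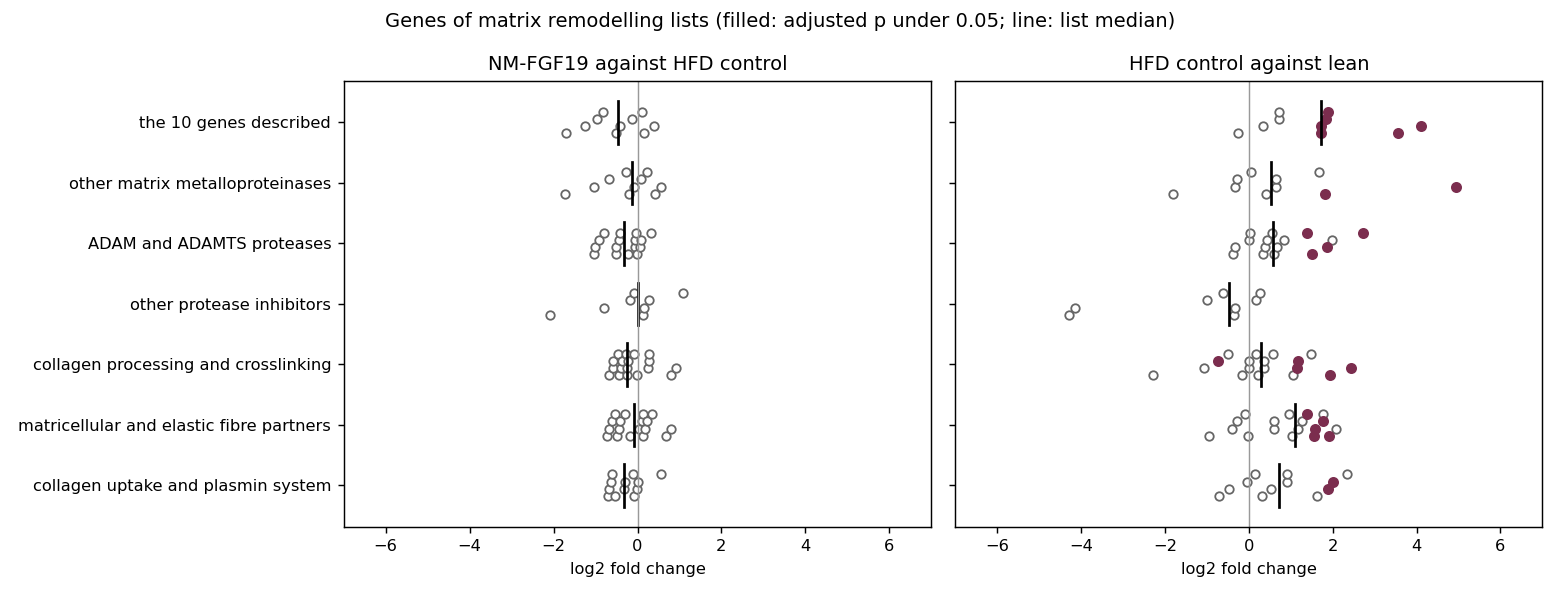
log2 fold change of each tested gene of the 10 members and of 6 lists of matrix remodelling genes, in NM-FGF19 against HFD control (left) and HFD control against lean (right); filled points have an adjusted p under 0.05 and lines are list medians. The diet panel holds 6 filled points for the members and 18 for the lists, and the treatment panel holds none.

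Markers of the cells that could carry these transcripts moved with the groups too, and their part in the results was not tested. The summed level of 14 stellate cell and fibroblast markers, all with a count in every group, was 438 to 1187 CPM in NM-FGF19, 628 to 1419 CPM in HFD control and 274 to 387 CPM in lean livers. It was highest in NM-FGF19 4, HFD control 3 and lean 3. Of the 14, 5 rose in HFD control against lean livers, and these, named after their values were seen, were Col3a1, Col1a1, Col1a2, Lrat and Des. Of all genes 5.04% rose and 3.29% fell in this comparison. The sum of 9 recruited macrophage markers was 132 to 249 CPM in NM-FGF19, 182 to 474 CPM in HFD control and 131 to 192 CPM in lean livers, and 6 of 9 rose with diet. The sum of 7 resident Kupffer cell markers was 92.0 to 379 CPM in NM-FGF19, 126 to 463 CPM in HFD control and 427 to 583 CPM in lean livers, and 5 of 7 fell with diet. In the high-fat groups most of this sum was Cd5l, named after its values were seen, which was not among the 5. Cd5l averaged 122 CPM in NM-FGF19, 206 CPM in HFD control and 189 CPM in lean livers. Clec4f, which fell, averaged 47.4, 27.9 and 166 CPM in the same order. With lean 3 and HFD control 3 both left out these diet counts were 0 of 14, 5 of 9 and 3 of 7, in a fit where calls over all genes also went down, to 323 higher and 157 lower, against 770 and 502. With library totals alone 11 of the 14 stellate cell and fibroblast markers were called higher, in a scaling that called 15.6% of all genes higher. In NM-FGF19 against HFD control livers 0 of these 30 markers passed (edgeR), with 8 at an unadjusted p under 0.05, against 8.95% of all genes. These 8 were 1 stellate cell and fibroblast, 3 resident Kupffer cell and 4 recruited macrophage markers. DESeq2 called 3, all resident Kupffer cell markers and higher in NM-FGF19 livers, against 1.89% of all genes, and limma voom called 0. The summed adipocyte markers were at 0 to 0.264 CPM in NM-FGF19, 0.812 to 21.1 CPM in HFD control and 0 to 0.279 CPM in lean livers. This sum was almost wholly Cfd (adipsin), at 0.0756 ± 0.127 CPM in NM-FGF19, 10.03 ± 8.46 CPM in HFD control and 0.0465 ± 0.0929 CPM in lean livers. Cfd, named after its values were seen, was called higher in HFD control against lean livers (adjusted p = 0.00848) and lower in NM-FGF19 against HFD control livers (adjusted p = 0.0294), the only marker of any list called in that comparison by edgeR. It was the only adipocyte marker tested. Every NM-FGF19 and lean library lay under the low-count filter's threshold of 0.339 CPM. Cfd therefore passed the filter through the HFD control group alone, and its 2 calls are not independent of that. Both of its calls were lost with limma voom, and with lean 3 and HFD control 3 both left out. The defining genes Plin1 and Lep were at 0 in the HFD control libraries, and Adipoq was at 0.0145 ± 0.029 CPM. The hepatocyte sum, given above, was lower in every HFD control library than in every NM-FGF19 and every lean library, and 1 of 8 hepatocyte markers, Ambp, fell with diet (log2 change -0.90 ± 0.20, adjusted p = 0.0185). Most of this sum was Alb, at means of 75269 CPM in NM-FGF19, 33264 CPM in HFD control and 54574 CPM in lean livers. Not all 8 markers followed it. Cyp2e1 averaged 6308, 7917 and 6109 CPM in the same order, and Ttr 4767, 4747 and 4692 CPM. The sums of neutrophil, cholangiocyte, mesothelial and sinusoidal endothelial markers overlapped between all groups, except that the sinusoidal sum was 386 to 436 CPM in NM-FGF19 and 338 to 383 CPM in lean livers. Of these lists, the sinusoidal genes Pecam1 and Fcgr2b rose with diet (adjusted p = 0.0453 and 0.0496) and the cholangiocyte gene Sox9 fell (adjusted p = 0.0477). These genes too were named after their values were seen. The Sox9 call was lost with limma voom, with library totals alone, and with lean 3 and HFD control 3 both left out. With limma voom, and with both libraries left out, 1 sinusoidal gene was called higher. In a bulk sample fewer cells of a type and less RNA per cell cannot be told apart, which holds for every member described.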

How the data were processed

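Liver RNA from 12 mice was sequenced as stranded, poly(A)-selected libraries in read pairs, per the labels' protocols. The authors deposited a table of raw counts per Ensembl gene. Per the submitters' processing notes, Trimmomatic, STAR and featureCounts were used with mm39. Versions, annotation and strand mode were not found in the labels or headers. Symbols were matched to 52083 of 55359 IDs.

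From the counts, genes were filtered with filterByExpr (minimum count 10), scaled with TMM, and fitted with edgeR 4.0.16 (robust quasi-likelihood F test, R 4.3.3) on all 12 libraries with group as the only term. P-values were 2-sided and adjusted by Benjamini-Hochberg over 15274 genes, threshold 0.05. Log2 CPM used a prior count of 2. Standard errors are the log2 change over the square root of F. DESeq2 1.42.0 and limma 3.58.1, other scalings, filters and left-out libraries served as alternatives, and those for the gene and marker lists were chosen after seeing the data. The scripts were tested on simulated data.

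The members and lists were chosen with earlier results of these data known. All members were named, and from each list the 2 called genes with the smallest adjusted p per direction and comparison. For likeness the 2 genes with the highest Pearson r were named per member. Promoters came from RefSeq GRCm38.p6, and exon lengths from GENCODE M21 on GRCm38. Mice were separate animals, per the labels. At these depths 3 counts correspond to 0.0792 to 0.153 CPM per library. Replicates of a group correlated at 0.946 to 0.98, and no libraries were duplicates.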

Additional observations from a re-analysis of the deposited data

Results flagged for a closer look

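In 1 of 30 sets of 4 values checked (10 genes in 3 groups), a library stood apart from the other 3 by more than Dixon's critical value for 4 samples. HFD control 3 had 8.92 CPM of Mmp13, and the nearest HFD control library had 1.65 CPM. Chance flags about 1 in 20 such sets. This library was also the highest HFD control in 9 of 10 genes, a count that was not set against all genes. It had the highest summed stellate cell marker level of the 12 livers (1419 CPM) and the highest recruited macrophage sum (474 CPM), whose part in the Mmp13 value was not tested.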

How the results depend on the processing

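In HFD control against lean livers 4 to 7 of the 10 members were called higher over 19 alternatives, and 4 to 6 with 1 library left out. Of all genes 4.01% were called higher with limma voom, 8.5% with DESeq2 and 15.6% with library totals alone. Sparc, Loxl1 and Loxl2 were called in all 19. Mmp13 and Timp1 lost their calls under limma voom (adjusted p = 0.112 and 0.0561) and without the low-count filter (0.0513 and 0.067). In NM-FGF19 against HFD control livers the count was 0 under all 19. In NM-FGF19 against lean livers the count of 1 became 5 with DESeq2, 4 with library totals alone, 2 without the low-count filter, and 0 with limma voom, with a replicate block and with only the 2 groups compared. The count was 0 to 2 with 1 library left out. The share of all genes called moved too. It was 1.49% with edgeR and TMM scaling, 6.34% with DESeq2, 2.61% with library totals alone and 0.733% with limma voom. Same-numbered libraries did not deviate together (correlations of -0.363 to 0.0712). This gave no sign that the replicate numbers pair mice, but a low correlation cannot exclude a pairing. With the replicate block 5, 0 and 0 members were called in the diet, treatment and NM-FGF19 against lean comparisons, and the diet call that ended was that of Mmp13 (log2 change 3.61, adjusted p = 0.0819).

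Some changes that missed the threshold turned sign (log2 values). Mmp14 in HFD control against lean livers was 0.098 with library totals alone. In NM-FGF19 against HFD control livers, Mmp2 ran between -0.513 and 0.0833 with 1 library left out, above 0 without HFD control 3 (0.07), NM-FGF19 2 or NM-FGF19 3 (0.03), and was 0.0689 without lean 3 and HFD control 3. Mmp13 ran between -1.30 and 0.441, the higher value without HFD control 3, and was also 0.44 without both libraries. Timp2 ran between -0.167 (without NM-FGF19 4) and 0.398. Timp3 ran between -0.0718 and 0.269, below 0 without HFD control 1 or NM-FGF19 4, and was -0.0121 with library totals alone. Lox in NM-FGF19 against lean livers ran between -0.954 and 0.0299, above 0 without lean 3, and was 0.0312 without both libraries. The cause of these turns was not tested. Lox was not tested under a filter of 1 CPM in 4 libraries. Mmp13, Timp1 and Lox, at under 1 CPM in some libraries, are limited by depth.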
